A study of Sus scrofa with 4 samples.

Results

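Cells carrying transcripts of natural killer (NK) cell genes were examined in 2 endometrium libraries of the pig, taken on day 9 and day 12 of pregnancy. A cell was counted as an NK-gene cell if it held at least 2 unique molecular identifiers (UMIs, each standing for 1 captured RNA molecule) summed over GNLY, NKG7, KLRB1, KLRD1, KLRK1 and NCR1. It also had to hold no UMI of CD3D, CD3E or CD3G and fewer than 6 UMIs over 8 macrophage genes (CD163, CD68, CD14, CSF1R, AIF1 and the 3 C1Q chains). Kept cells had at least 1000 UMIs, at least 500 genes and at most 20% mitochondrial UMIs. The rule took 252 of 7984 kept cells on day 9 and 595 of 8962 on day 12, 847 of 16946 in all. The shares were 3.16% (95% exact binomial interval 2.78 to 3.56) and 6.64% (6.13 to 7.17). Because these UMIs chose the cells, the levels of the 6 NK genes and of the CD3 and macrophage genes in them are given as a description.

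NK cells are lymphocytes without a rearranged antigen receptor. They read a balance of activating receptors (KLRK1, also known as NKG2D, and NCR1, also known as NKp46) and inhibitory ones, and they kill with granules that hold perforin, granzymes and granulysin (GNLY). In the uterus of several species they are abundant around implantation, where they are known for cytokine and chemokine release and for effects on blood vessels. In the pig, whose conceptus attaches to the uterine surface without invading it, the elongating conceptus secretes oestrogen and interferons.

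The series holds 4 droplet libraries counted at the 3′ end of transcripts, 1 for each of embryo and endometrium on each day, so each endometrium group is 1 library. The labels give the day and the tissue and name no breed, treatment, animal or pooling. All pigs were pregnant, so there is no cyclic control. Endometrium was minced, digested with collagenases, dispase and DNase, strained and treated to lyse red cells. The files held 9483 and 11757 endometrial barcodes with 27250593 and 27589239 UMIs, and those kept had medians of 2639 and 2233 UMIs. With 1 library a day no test between days was possible, and day, animal and library preparation cannot be told apart. All intervals below are exact 95% intervals that cover counting error only, and cells of 1 library are not replicates. In all, 1200908 and 2657170 UMIs lay in NK-gene cells, which had medians of 3275 and 2853 UMIs and 1424.5 and 1210 genes a cell. They were compared with 295 and 506 CD3 cells, which held at least 2 UMIs over the 3 CD3 genes. Of the NK-gene cell barcodes, 4 on day 9 and 5 on day 12 also named a kept cell of the other endometrium library. Kept cells of the day 9 embryo library shared 2 and 5, and those of the day 12 embryo library 5 and 10. No doublet caller was run here, and the sources used here do not say whether doublets were removed.

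The data went against a plain reading of most of these cells as NK cells. At least 10 UMIs over 6 genes of fibroblast matrix (DCN, LUM, COL1A1, COL1A2, COL3A1 and PDGFRA) were present in 174 of 252 cells (69.0%) on day 9 and in 454 of 595 (76.3%) on day 12. The median cell held 31 such UMIs on day 9, in a range of 0 to 827, and 71 on day 12, in a range of 0 to 589. A UMI of PTPRC, the leukocyte common antigen CD45, was found in 71 cells (28.2%) and 145 cells (24.4%), against 59.7% and 73.3% of CD3 cells. Among the NK-gene cells with 10 or more stromal UMIs the PTPRC share was 16.7% and 15.2%, and among those with fewer it was 53.8% and 53.9%. The cells are therefore called NK-gene cells here, after the rule.

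Many cells met the rule at its lower edge. Exactly 2 NK-gene UMIs were held by 142 cells (56.3%) on day 9 and 343 cells (57.6%) on day 12, and GNLY was the sole NK gene in 90 cells (35.7%) and 305 cells (51.3%). Just outside the threshold, with 1 NK-gene UMI, lay 1143 and 1681 cells, whose median stromal UMIs were 96 and 103 and of which 3.59% and 5.00% held a PTPRC UMI. Just inside it, the cells with 2 NK-gene UMIs had medians of 73.5 and 98 stromal UMIs and a PTPRC UMI in 9.15% and 8.75%. The 61 and 147 cells with 5 or more NK-gene UMIs had medians of 4 and 7 stromal UMIs and a PTPRC UMI in 67.2% and 63.9%. Cells kept out by their CD3 or macrophage UMIs were also common. A single CD3 UMI set aside 120 and 252 cells that had 2 or more NK-gene UMIs, and 6 or more macrophage UMIs set aside 96 and 106. Among the CD3 cells, 144 of 295 and 396 of 506 held 2 or more NK-gene UMIs.

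**Figure D1:**
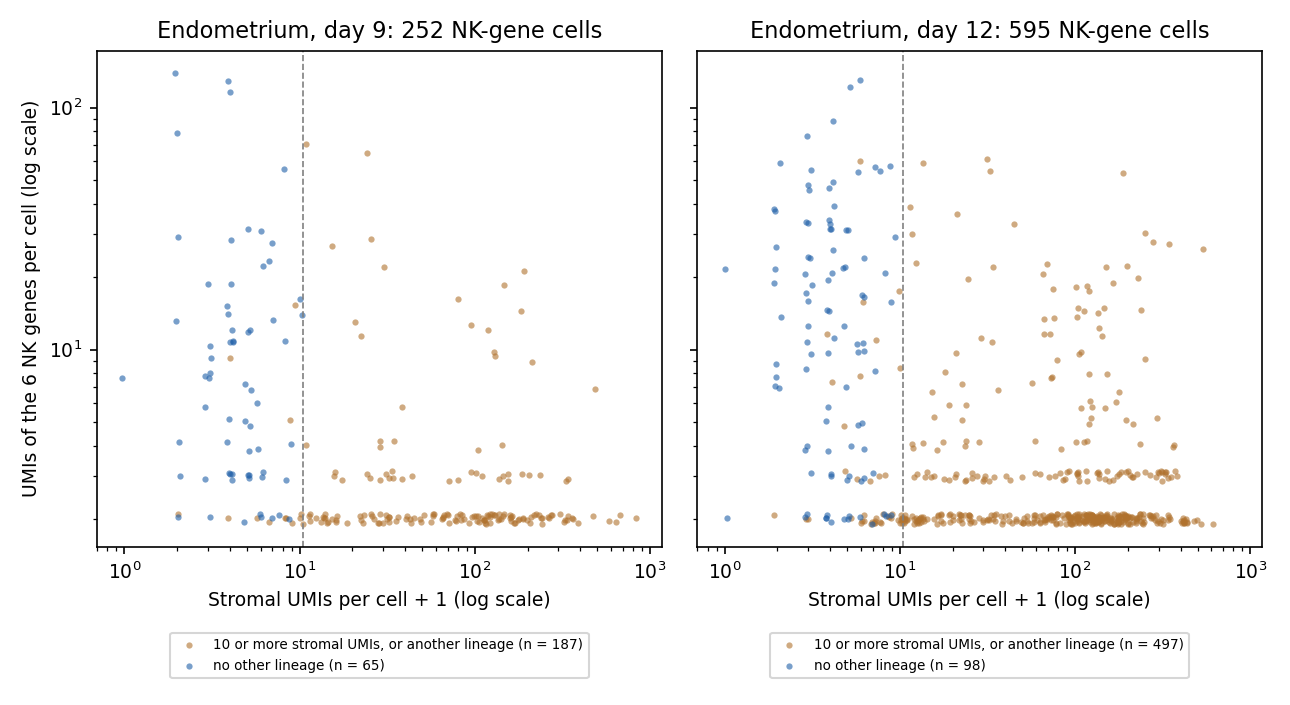
Each point is 1 NK-gene cell; the x axis gives its UMIs over 6 stromal genes plus 1 and the y axis its UMIs over the 6 NK genes, both on log scales, for day 9 (left, 252 cells) and day 12 (right, 595 cells), with a dashed line between 9 and 10 stromal UMIs and colour for the cells of no other lineage. Most points lie to the right of the dashed line at 2 or 3 NK-gene UMIs (174 and 454 cells are right of it), and the cells with many NK-gene UMIs lie mainly to its left.

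The plot of stromal against NK-gene UMIs per cell shows this split. Stromal cells as such carried NK-gene transcripts at a low level. Stromal comparison cells, defined by 20 or more UMIs of the same 6 stromal genes and no PTPRC UMI, numbered 5770 and 6149, with median depths of 2762 and 2240 UMIs. GNLY summed over them stood at 67.3 counts per 1000000 UMIs (CPM) on day 9 and 173 CPM on day 12. Of the stromal comparison cells that met the CD3 and macrophage limits, 126 of 5473 (2.30%, 1.92 to 2.74) on day 9 and 336 of 5858 (5.74%, 5.15 to 6.36) on day 12 also met the NK-gene limit. Those cells make up 50% and 56.5% of all NK-gene cells. Whether such cells hold a lymphocyte beside a fibroblast, or RNA free in the suspension, was not tested.

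The 6 NK genes were then set beside the stroma at equal depth, each cell thinned to 1000 UMIs. GNLY was seen in 32.5% (26.8 to 38.7) of NK-gene cells on day 9 and 50.9% (46.8 to 55.0) on day 12, and in 5.62% and 12.0% of stromal comparison cells. Unthinned, the GNLY shares were 76.2% and 88.2% in NK-gene cells and 16.4% and 25.4% in stromal ones. KLRB1, which encodes the C-type lectin CD161, was in 18.7% (14.0 to 24.0) and 7.39% (5.42 to 9.80) thinned and 26.6% and 11.09% unthinned, and in 0.589% and 0.374% of thinned stromal cells. KLRK1 was in 16.3% and 18.0% thinned and 27.4% and 28.2% unthinned (thinned stroma 0.624% and 1.32%). NKG7, a granule membrane protein, was in 15.9% and 17.6% thinned and 35.7% and 31.1% unthinned (thinned stroma 0.728% and 1.42%). NCR1, the most NK-restricted of the 6, was in 1.98% and 1.18% thinned and 3.17% and 3.03% unthinned. KLRD1, the CD94 partner of the NKG2 receptors, was in 0 cells on day 9 and in 0.168% on day 12. GNLY was thus in most of the cells, and NCR1 and KLRD1 were in few.

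Summed over all NK-gene cells, the widest ratios of day 12 to day 9 were in genes known chiefly from other endometrial cells. Of 6453 genes at 20 CPM or more on either day, 508 (7.87%) were at least 2-fold higher on day 12 (log2 ratio, with 1 CPM added, of 1 or more) and 707 (11%) at least 2-fold lower. The median log2 ratio over all of them was -0.16. The genes named are the 12 highest and 12 lowest ratios among those at 50 CPM or more on either day whose level on the higher day exceeded that of the rest of the library. The 12 highest included S100A12, UABP-2, MEP1B, CD24, GPX3, SPP1, IL33, GBP1, TRPV5, SLCO2A1 and NMB. IL33, an alarmin cytokine, was at 3.33 CPM on day 9 and 89.2 on day 12, a ratio of 26.8 (10.3 to 99.1). GBP1, an interferon-induced guanylate-binding protein, was at 40.0 CPM on day 9 and 835 on day 12, a ratio of 20.9 (15.7 to 28.4). NMB, which encodes neuromedin B, was at 25.8 CPM on day 9 and 312 on day 12, a ratio of 12.1 (8.44 to 17.9). UABP-2, a basic protein of the uterine secretion, had no UMI on day 9 and 66.6 CPM on day 12, at least 26.7-fold higher against a floor of 3 UMIs. The NK-gene cells of no other lineage, defined below, held 3.24% of the day 12 UMIs of these 12 genes, and the stromal comparison cells were also higher, at 46.5 CPM on day 9 and 1119 on day 12 summed over the 12.

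The 12 lowest were CCL28, DEFB1 (ENSSSCG00000029990), RAB26, FXYD4, SPDEF, DISP3, CES3, WWP2, SORL1, ALDH1A3, MT3 and ADCK5. DEFB1, an antimicrobial beta-defensin of epithelia, was at 2778 CPM on day 9 and 14.7 on day 12, 189-fold lower (138 to 267). CCL28, a chemokine of mucosal epithelium, was at 325 CPM on day 9 and 0.753 on day 12, the latter being 2 UMIs. Within no other lineage, DISP3 had 0 and 1 UMIs, too few for a direction. SPDEF, a transcription factor of secretory epithelium, was at 91.6 CPM and at 1 UMI. The same direction was seen in stromal comparison cells, where DEFB1 stood at 778 and 6.12 CPM and CCL28 at 152 and 0.780 CPM. Over the 12 genes the sum in NK-gene cells was 4834 and 99.7 CPM, and 1.43% of the day 9 UMIs lay in cells of no other lineage.

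Gene lists gave the same picture. Blood endothelial markers were at least 2-fold higher on day 12 in 11 of 12 measured genes, with a median log2 ratio of 1.75 and a sum of 466 and 1942 CPM. PECAM1 was at 53.3 CPM on day 9 and 254 on day 12, and CDH5, the endothelial cadherin, at 18.3 CPM on day 9 and 107 on day 12. Epithelial markers were at least 2-fold lower in 5 of 9, with a median of -2.22, and EPCAM was at 183 CPM on day 9 and 36.5 on day 12. Genes of the interferon gamma response were at least 2-fold higher in 16 of 19, with a median of 1.60. Over all genes 7.87% were at least 2-fold higher and 11% lower. Cytotoxic granule proteins were at least 2-fold higher in 1 and lower in 1 of 11, with a median of -0.08, next to the median of all genes. The part of the other cells' genes in these day ratios was not tested.

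Against CD3 cells the NK-gene cells as a whole were low in leukocyte genes. Of 5504 genes at 20 CPM or more in both libraries, 152 (2.76%) were at least 2-fold above CD3 cells on both days and 317 (5.76%) at least 2-fold below on both. PTPRC was at 88.3 and 101 CPM against 472 and 673 CPM in CD3 cells. The pan-leukocyte list was at least 2-fold below in 10 of 11 genes on day 9 and 11 of 11 on day 12 (8.6% and 9.46% of all genes), and CORO1A, a leukocyte actin regulator, stood at 106 and 117 against 907 and 966 CPM. The cytotoxic granule list was below in 11 of 12 and 9 of 12 genes. GZMH, a granzyme, was at 90.8 and 111 against 1073 and 863 CPM, and CCL5, a chemokine of cytotoxic lymphocytes, at 1108 and 1356 against 5805 and 8079.6 CPM. The other named genes below CD3 cells were PCLAF, CD5, ZAP70, IL16, KCNAB2, PTPN7, CD8A, SASH3, PARVG and RUNX3, among them the T cell antigens CD5 and CD8A and the kinase ZAP70 of antigen receptor signalling. Of the genes above CD3 cells, JCHAIN and MZB1 belong to antibody-secreting cells. JCHAIN was at 10263 and 18481 CPM against 512 and 2789, and MZB1 at 164 and 191 against 19.7 and 19.3. CD93, ADGRL4 and SOX17 are known from endothelium, and BCR, FJX1, NFIB, SLPI, RCAN1, ABCG2 and RND1 completed the 12. Endothelial and plasma cell genes were then limited by a filter on cells, described next, after which the 12 above CD3 cells kept 72 of 13948 UMIs on day 9 and 61 of 53329 on day 12.

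For these reasons the rest of the account uses the NK-gene cells of no other lineage, a set defined after the data were seen. They held fewer than 10 stromal UMIs, fewer than 4 UMIs over each of the endothelial, epithelial, smooth muscle and B or plasma cell lists, and fewer than 10 UMIs of JCHAIN. On day 9, 65 of the 252 cells met these limits (0.814% of kept cells, 0.629 to 1.04), and on day 12, 98 of 595 (1.09%, 0.889 to 1.33). The limits were counted in a fixed order, each among the cells left by those before it. The stromal limit set aside 174 and 454 cells. Of the rest, the endothelial list set aside 3 and 23, the epithelial list 6 and 10, the smooth muscle list 2 and 7 and the B or plasma genes 2 and 3. Cells past the stromal limit also carried later genes. The B and plasma list had 12694 and 50103 UMIs in all NK-gene cells, and 111 and 3361 in those with fewer than 10 stromal UMIs. The remaining cells summed to 92681 and 142977 UMIs and had medians of 1167 and 1194 UMIs a cell. Their median number of NK-gene UMIs was 8 on day 9 and 13.5 on day 12, and 60.0% (47.1 to 72.0) and 70.4% (60.3 to 79.2) held a PTPRC UMI. The same limits left 211 and 330 CD3 cells, with medians of 1256 and 1332 UMIs, of which 61.1% and 77.3% held a PTPRC UMI. From here on, both names mean the cells of no other lineage unless all NK-gene cells are named.

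Stromal transcripts did not vanish from these cells. DCN, which encodes decorin, was at 453 and 608 CPM, against 5578 and 13907 CPM in stromal comparison cells and 458 and 610.4 CPM in CD3 cells. The stromal list summed to 3593 and 3273 CPM, against 37126 and 44524 CPM in the rest of each library. The pan-leukocyte list summed to 6377 and 7701 CPM, near the 7538 and 8689 CPM of CD3 cells. The limits used the blood endothelial and epithelial lists, so their low sums follow from the choice of cells. The blood endothelial list summed to 43.2 and 154 CPM with CDH5 at 0 on both days, and the epithelial list to 324 and 69.9 CPM.

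Among the genes of the rule, GNLY was at 7239.9 CPM (6702 to 7809) on day 9 and 10959.8 (10424 to 11516) on day 12. CD3 cells held it at 5173 and 11635 CPM, so granulysin was no property of the NK-gene cells alone. KLRB1 was at 2126 CPM (1839 to 2444) on day 9 and 769 (632 to 927) on day 12, that is 2.76-fold lower (2.18 to 3.52). In CD3 cells KLRB1 was at 385 and 170.5 CPM, also lower on day 12. KLRK1 was at 1359.5 CPM (1132 to 1619) on day 9 and 1322 (1140.1 to 1524) on day 12, against 455 and 799 CPM in CD3 cells. NKG7 was at 766 and 1279.9 CPM, close to the 714 and 1270.4 CPM of CD3 cells. NCR1 rested on 6 and 13 UMIs, which are 64.7 and 90.9 CPM, with 22.1 and 18.3 CPM in CD3 cells. KLRD1 had 0 UMIs on day 9 and 1 on day 12.

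**Figure D2:**
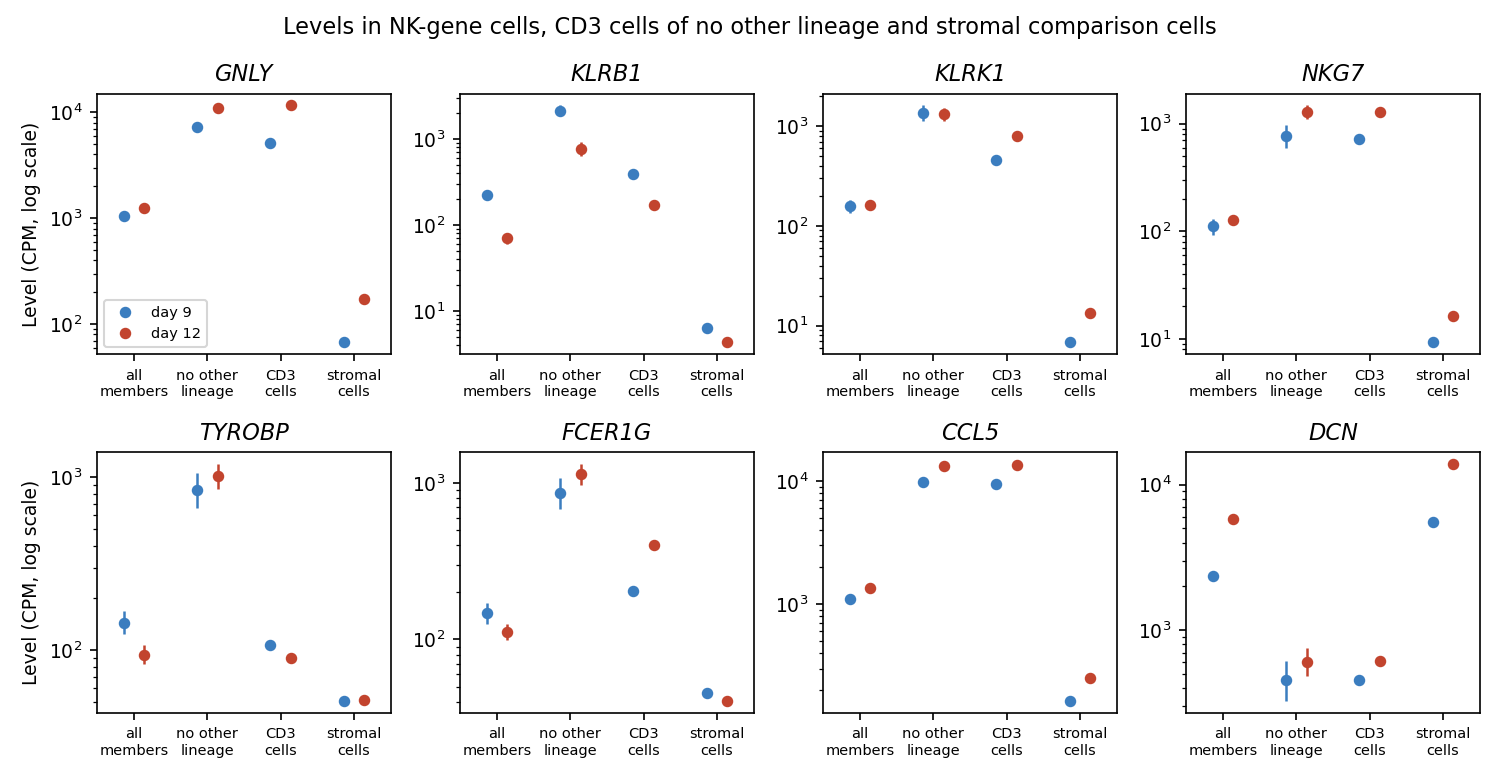
Levels of 8 genes in CPM (y axes, log scales) in all NK-gene cells, NK-gene cells of no other lineage, CD3 cells of no other lineage and stromal comparison cells, with 1 point for the day 9 and 1 for the day 12 library and vertical lines for exact 95% intervals, which are given for the NK-gene cells. TYROBP and FCER1G are higher in NK-gene cells of no other lineage than in CD3 cells on both days (842 and 1014 against 107 and 89.8 CPM for TYROBP), GNLY and CCL5 are not, and DCN is highest in stromal cells.

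Among the genes that the rule did not use, the receptor adaptors TYROBP and FCER1G were above CD3 cells on both days. Of 4804 genes at 20 CPM or more in both libraries, 163 (3.39%) were at least 2-fold above CD3 cells on both days and 135 (2.81%) at least 2-fold below. Counted by day, 18.6% of genes were above and 14.2% below on day 9, and 13.9% and 11.3% on day 12. TYROBP, which encodes the adaptor DAP12 of activating NK receptors, was at 842 CPM (665 to 1050.3) on day 9 and 1014 (856 to 1193) on day 12. Relative to CD3 cells, that was 7.84 (5.18 to 12.1) on day 9 and 11.3 (8.11 to 15.9) on day 12, as the plot of levels by group shows. A single cell held 23.1% and 11.7% of the TYROBP UMIs. FCER1G, the Fc receptor gamma chain that serves as an adaptor for NCR1, was at 863 CPM (684 to 1074) on day 9 and 1133 (965 to 1322) on day 12, 4.21 (2.99 to 5.93) on day 9 and 2.81 (2.28 to 3.46) on day 12 relative to CD3 cells. Both adaptors are also made by myeloid cells, and the 8 macrophage genes, limited by the rule, summed to 313 and 343 CPM, with 0 and 2 of them at 0, against 758 and 467 CPM in CD3 cells. Without the 5 and 14 cells that held 2 to 5 macrophage UMIs, the log2 ratios to CD3 cells went from 2.96 and 3.48 to 2.11 and 1.87 for TYROBP and from 2.07 and 1.49 to 2.03 and 0.94 for FCER1G, so both adaptors stayed above CD3 cells, FCER1G less than 2-fold on day 12. In this and the later comparisons without such cells, the limit was put on the NK-gene cells alone. The CD3 cells, which the rule gave no macrophage limit, were unchanged. Of the adaptor and proximal signalling list, 4 of 10 genes on day 9 and 4 of 11 on day 12 were at least 2-fold above CD3 cells. CD247, the zeta chain shared with the T cell receptor, was at 227 and 203 against 249 and 280.5 CPM, and the kinase LCK at 259 and 301 against 483 and 356 CPM. SH2D1A, the adaptor SAP, was at 269.7 and 182 CPM and SYK rested on 1 and 4 UMIs.

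Inhibitory receptors and checkpoints outside the rule were sparse, at 129 and 322 CPM summed over the list. The activating receptors outside the rule summed to 1014 and 811 CPM, most of it CD2. Of 6 measured activating receptors, 0 were at least 2-fold apart from CD3 cells on either day and 0 differed 2-fold by day. CD2, an adhesion and costimulatory receptor, was at 615 CPM on day 9 and 441 on day 12, CRTAM at 227 and 168 CPM, CD244 (2B4) at 64.7 and 97.9 CPM and CD226 (DNAM-1) at 32.4 and 56.0 CPM. Of 7 inhibitory receptors and checkpoints, 5 were at least 2-fold higher on day 12, with a median log2 ratio of 1.35. Among all 6326 genes measured, 1108 (17.5%) were at least 2-fold higher and 1534 (24.2%) at least 2-fold lower, with a median of -0.04, so such ratios are common at these counts. LAG3, a checkpoint receptor, had 3 and 12 UMIs and CD96 3 and 12, each a ratio of 2.59 (0.700 to 14.3), and PDCD1 had 1 and 7. Without the cells that held CD4, CD5, CD6 or CD28, the log2 ratio by day was -1.14 for LAG3 and 1.37 for CD96. At so few UMIs, and with an interval that holds 1 in the full set, LAG3 had no settled direction. In 0 of the 5 did the interval of the ratio lie above 1.

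Of 12 cytotoxic granule genes, 0 were at least 2-fold above CD3 cells on either day, and 2 on day 9 and 0 on day 12 were at least 2-fold below, against the 14.2% and 11.3% of all genes given above. GZMH was at 475 CPM (345 to 637) on day 9 and 958 (804 to 1133) on day 12, a ratio of 2.02 (1.43 to 2.90), and 0.306 (0.220 to 0.417) of CD3 cells on day 9 and 0.741 (0.613 to 0.892) on day 12. GZMA (ENSSSCG00000016903) was at 615 CPM (466 to 797) on day 9 and 1329 (1147 to 1532) on day 12, a ratio of 2.16 (1.60 to 2.96), with 587 and 1087 CPM in CD3 cells. The other gene of that symbol (ENSSSCG00000016902) was at 32.4 and 56.0 CPM. GZMH and the first GZMA were the 2 of 12 granule genes at least 2-fold higher on day 12. Both lay near that line. Left out next were the 4 and 5 NK-gene cells whose barcodes also named a kept cell of any other library, embryo included. Then 0 of 12 passed that line, with log2 ratios of 0.81 for GZMH and 0.98 for GZMA. In cells with 2 different NK genes they were 1.79 for GZMH and 0.79 for GZMA. GZMM was at 453 and 273 CPM, a ratio of 0.602 (0.379 to 0.954), and GZMK at 151 and 119 CPM, 0.787 (0.365 to 1.72). PRF1, which encodes perforin, was at 259 and 364 CPM, and on day 12 at 1.54 (1.09 to 2.14) of CD3 cells. The most abundant of the list were CTSW, a cathepsin of cytotoxic lymphocytes, at 3280.1 CPM on day 9 and 3371 on day 12, and the granule proteoglycan SRGN at 1618 CPM on day 9 and 1455 on day 12. CST7, the cystatin that inhibits granzyme-activating cathepsins, was at 755 and 685 CPM. FASLG, a death ligand, had 6 and 8 UMIs. Granzymes are a family of close copies, and the sources used here do not give the handling of reads shared between copies.

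Chemokines were among the most abundant products of the cells, and several had different levels by day. CCL5 was at 9873 CPM on day 9 and 13170 on day 12, a ratio of 1.33 (1.23 to 1.45), against 9534 and 13490.1 CPM in CD3 cells. CCL4, a chemokine that draws T cells and monocytes, was at 3798 CPM on day 9 and 8463 on day 12, a ratio of 2.23 (1.98 to 2.52), with 3057 and 9193 CPM in CD3 cells. XCL1, which draws cross-presenting dendritic cells, was at 442 CPM on day 9 and 727 on day 12, 1.64 (1.14 to 2.42). CXCL8, a neutrophil chemokine, went the other way, at 939 CPM on day 9 and 97.9 on day 12, 9.59-fold lower (5.42 to 18.3). Its UMIs came from 13 and 5 cells, and CD3 cells held 227 and 174 CPM. In cells with 2 different NK genes the log2 ratio of CXCL8 was -5.23, against -3.25 in all. CXCL10, an interferon-induced chemokine, had 0 UMIs on day 9 and 979 CPM on day 12 from 36 of 98 cells, at least 30.3-fold higher. CXCL10 in stromal comparison cells stood at 175 and 1775 CPM and in CD3 cells at 53.7 and 295, so the day 12 level was higher in all 3 groups. Without the cells of 2 to 5 macrophage UMIs, CXCL10 was at 340.4 CPM on day 12, from 26 of 84 cells and at least 9.02-fold higher than on day 9, and its log2 ratio to CD3 cells on that day went from 1.73 to 0.21.

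The cytokine list summed to 7693 CPM on day 9 and 6602 on day 12, against 8694 and 6788 CPM in CD3 cells. Of its 18 matched genes, 8 and 6 had 0 UMIs. The cytokines named here stood far below that sum. IFNG, the signature cytokine of NK cells, had 0 UMIs on day 9 and 1 on day 12, and CD3 cells held it at 6.32 and 16.5 CPM. TNF was at 399 CPM on day 9 and 294 on day 12, a ratio of 0.736 (0.462 to 1.18). IL10, an anti-inflammatory cytokine, had 0 UMIs on day 9 and 16 on day 12 in 8 cells, at least 3.46-fold higher, against 15.8 and 49.5 CPM in CD3 cells. LTA, which encodes lymphotoxin alpha, had 12 UMIs on day 12, of which 1 cell held 83.3%. AREG, an epidermal growth factor receptor ligand made by innate lymphoid cells, was at 97.1 CPM on day 9 and 21.0 on day 12, from 9 and 3 UMIs, a ratio of 0.216 (0.0376 to 0.866). CD3 cells held AREG at 6.32 and 7.33 CPM. The 3 UMIs of day 12 came from cells with 2 NK-gene UMIs and 2 or more macrophage UMIs. IL1RL1, the receptor of the alarmin IL33, had 6 UMIs on day 9 and 0 on day 12, at least 3.09-fold lower.

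Genes of the interferon gamma response were higher on day 12 in all 17 measured members of the list. In 11 of the 17 the ratio was at least 2-fold, against the 17.5% of all genes given above, and in 10 its interval lay above 1. The list had a median log2 ratio of 1.51. GBP1 was at 140.3 CPM (74.7 to 239.9) on day 9 and 1105 (939 to 1291) on day 12, a ratio of 7.88 (4.48 to 15.1). Its log2 ratio was 2.97, and 3.69 in the cells without a UMI of the T cell genes CD4, CD5, CD6 and CD28. The transcription factor IRF1 was at 97.1 CPM on day 9 and 483 on day 12, a ratio of 4.97 (2.47 to 11.3). SOCS1, a feedback inhibitor of interferon signalling, was at 64.7 CPM on day 9 and 364 on day 12, 5.62 (2.41 to 16.0). The immunoproteasome subunit PSMB9 was at 183 and 532 CPM, the peptide transporter TAP1 at 129 and 301 CPM, the proteasome activator PSME2 at 302 and 741 CPM and B2M, the light chain of MHC class I, at 13185 and 18681 CPM. The median of the same genes was 0.93 in CD3 cells and 1.94 in stromal comparison cells. All 11 genes past the fold were also higher in CD3 cells and in stroma. SOCS3 differed among the groups, with log2 ratios of 0.69 in NK-gene cells, -0.85 in CD3 cells and -0.03 in stroma, untested. The plot of the interferon gamma list by day gives 16 of the 17.

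**Figure D3:**
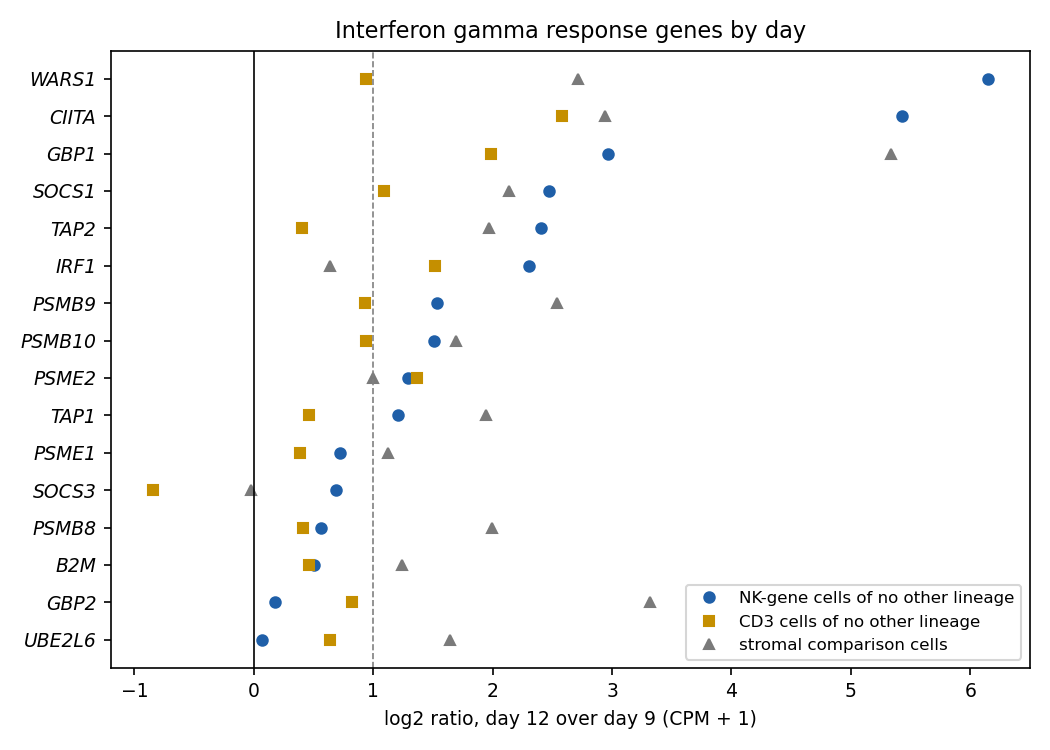
Log2 ratio of day 12 over day 9 (x axis, CPM with 1 added) of 16 of the interferon gamma response genes (y axis) in NK-gene cells of no other lineage, CD3 cells of no other lineage and stromal comparison cells; each point compares 2 libraries, with lines at 0 and at a 2-fold ratio. All points of the NK-gene cells lie above 0, from 0.07 for UBE2L6 to 6.15 for WARS1, which had 0 UMIs on day 9.

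Type I interferon response genes did not follow. Of 16 measured, 3 were at least 2-fold higher on day 12 and 1 lower, with a median log2 ratio of -0.01. Over all genes 17.5% were higher and 24.2% lower. ISG15, a ubiquitin-like interferon product, was at 1154 CPM on day 9 and 1168 on day 12. IFI6, a mitochondrial protein of the same programme, was at 3722 CPM on day 9 and 993 on day 12, 3.75-fold lower (3.07 to 4.59). It was lower in CD3 cells as well, at 2921 and 955 CPM, and in stroma, at 10912 and 4405 CPM.

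Cell cycle genes were higher on day 12 and lower than in CD3 cells. Of 12 measured, 11 were at least 2-fold higher on day 12, against 17.5% of all genes. In 4 of the 11 the interval lay above 1, and the median log2 ratio of the list was 1.47. In the 43 and 81 cells with 2 different NK genes, 7 were at least 2-fold higher. Of the 21 matched genes, 10 had 0 UMIs on day 9 and 4 on day 12. Among NK-gene cells with fewer than 10 stromal UMIs, 3 of 8 measured were at least 2-fold higher, in 1 with an interval above 1. There the share over all genes was 16.0%. Over all NK-gene cells 2 of 7 were at least 2-fold higher, against 7.87% of all genes, with a median log2 ratio of -0.23. PCNA, the clamp of DNA polymerase, was at 173 CPM on day 9 and 448 on day 12, 2.59 (1.48 to 4.81), and the chromatin protein HMGB2 at 313 CPM on day 9 and 678 on day 12, 2.17 (1.42 to 3.41). The list summed to 798 and 2133 CPM, against 1200.0 and 3751 CPM in CD3 cells. On day 12, 11 of 19 were at least 2-fold below CD3 cells, against 11.3% of all genes. The CD3 cells had the same direction by day, with a median of 1.83, and the stroma had a median of 0.02. The glycolysis list was at least 2-fold higher in 5 of 12, in 3 with an interval above 1, beside the same 17.5% of all genes.

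MHC class II genes, which pig lymphocytes can carry, were above CD3 cells. For CD74 and SLA-DQB1 the excess rested on few NK-gene cells, against CD3 cells without a macrophage limit. CD74, the invariant chain, was at 8966 CPM on day 9 and 13946 on day 12, against 5688 and 7406 CPM. SLA-DQB1 was at 1759 CPM on day 9 and 3210.3 on day 12, against 764 and 1408 CPM. Of 5 genes, 3 were at least 2-fold above CD3 cells on both days. By day, 2 were at least 2-fold higher on day 12, with a median log2 ratio of 0.87. Over all genes 18.6% and 13.9% were above CD3 cells on days 9 and 12, and 17.5% were higher on day 12. Dendritic, macrophage and B cells also carry these genes. Ranked by the same naming rule within the cells of no other lineage, the 12 highest genes over CD3 cells held LY86 and PLD4, both known from B and dendritic cells. LY86 was at 75.5 and 112 CPM against 15.8 and 9.17 CPM, and PLD4 at 53.9 and 189 against 12.6 and 11.0 CPM. The macrophage and dendritic cell list outside the rule summed to 453 and 888 CPM, against 1039 and 1233 CPM in the rest of each library, with 11 and 8 of its 15 matched genes at 0. CD74 and SLA-DQB1 were near or below CD3 cells once the 5 and 14 NK-gene cells of 2 to 5 macrophage UMIs were left out. The CD3 cells had no such limit, so their macrophage UMIs stayed in the comparison. The log2 ratios to CD3 cells were then 0.11 and -0.04 for CD74 and 0.08 and -0.29 for SLA-DQB1, PLD4 had 0 UMIs on both days and LY86 stood at 1.21 and 0.93.

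The same 12 genes opened with MS4A2 and FCER1A, the beta and alpha chains of the IgE receptor, which mark mast cells and basophils. MS4A2 was at 237 CPM on day 9 and 203 on day 12 from 4 and 9 cells, against 3.16 and 7.33 CPM in CD3 cells. FCER1A was at 173 CPM on day 9 and 62.9 on day 12 from 5 cells each day, 1 of which held 56.2% and 55.6% of its UMIs. So a few NK-gene cells had an IgE receptor transcript. CFD, complement factor D, was at 248 and 419.6 CPM against 72.6 and 104 CPM in CD3 cells. The cells of 2 to 5 macrophage UMIs were then left out. The log2 ratios to CD3 cells were 0.27 and 0.08 for CFD, 6.26 and 1.85 for FCER1A and 4.20 and 0.29 for MS4A2. CFD was thus less than 2-fold above CD3 cells, and on day 9 both IgE receptor chains were more than 2-fold above. What was left of both chains rested on few UMIs, fewest on day 12, where no excess is read from them.

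T cell genes were present, although CD3 UMIs were 0 by the rule. Of 12 measured T cell markers, 2 on day 9 and 5 on day 12 were at least 2-fold below CD3 cells and 0 above. Over all genes 14.2% and 11.3% were below, so the day 9 count lay near that share. CD8A, which NK cells of the pig also carry, was at 281 CPM on day 9 and 349.7 on day 12, against 388 and 522 CPM in CD3 cells. CD5 was at 140.3 and 62.9 against 202 and 178 CPM, and CD40LG, a helper T cell ligand, at 108 and 112 against 202 and 112 CPM. A UMI of CD4, CD5, CD6 or CD28 was in 13 of 65 cells (20%, 11.102 to 31.8) on day 9 and 17 of 98 (17.3%, 10.4 to 26.3) on day 12, against 39.8% and 34.8% of CD3 cells. T cells whose CD3 transcripts were not captured therefore cannot be told apart from NK cells in this set. The transcription factors EOMES and TBX21, which direct NK cell maturation, were sparse, with 2 and 1 UMIs of EOMES and 1 and 6 of TBX21 on days 9 and 12. ID2, which is needed for innate lymphoid development, was at 1413 CPM on day 9 and 1091 on day 12. Of 22 transcription factors, 8 were at least 2-fold higher on day 12, in 2 with an interval above 1, and 1 was lower. Over all genes 17.5% were higher and 24.2% lower. Other innate lymphoid markers were at least 2-fold lower on day 12 in 4 of 6, against the same 24.2% of all genes. In 2 of the 4 the interval lay below 1, namely KLRB1, a gene of the rule, and IL1RL1. IL7R had 6 and 2 UMIs.

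Of 10 measured residency genes, 0 on day 9 and 1 on day 12 were at least 2-fold above CD3 cells and 0 below. Of the circulation and homing genes, 2 of 11 on day 9 and 1 of 13 on day 12 were above and 3 below on each day. Over all genes 18.6% and 13.9% were above and 14.2% and 11.3% below. RGS1, a regulator of chemokine receptor signalling and a mark of tissue lymphocytes, was at 1521 CPM on day 9 and 1196 on day 12, against 998 and 953 CPM. CXCR4, the receptor of CXCL12, was at 2579 CPM on day 9 and 2196 on day 12, against 2151 and 2219.9 CPM. ITGAE, the CD103 integrin chain that binds epithelial cadherin, had 5 and 6 UMIs, and S1PR1, the receptor for exit from tissue, 2 and 3, at 21.6 and 21.0 CPM against 111 and 49.5 CPM in CD3 cells. The integrin chain ITGB2 was at 291 CPM on day 9 and 588 on day 12, 2.02 (1.29 to 3.24). In the steroid list, FKBP5 and TSC22D3, both induced by glucocorticoid and progesterone, were at 119 and 252 CPM and 119 and 259 CPM, ratios of 2.12 (1.06 to 4.62) and 2.18 (1.09 to 4.74). CD3 cells held FKBP5 at 117 and 244 CPM and TSC22D3 at 167 and 216 CPM. IL2RB, the shared chain of the interleukin 2 and 15 receptors, was at 140.3 and 224 CPM against 177 and 218 CPM. Of 10 immediate early genes that dissociation induces, 1 was at least 2-fold higher on day 12, and FOS was at 1467 and 2014 CPM.

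The cells were not alike among themselves, and KLRB1 divided them. This split was chosen after the data were seen. A KLRB1 UMI was found in 37 of 65 cells on day 9 and 26 of 98 on day 12, while 28 and 72 had none. Cells without KLRB1 had to enter through GNLY, KLRK1, NKG7, NCR1 or KLRD1, so the contrast of those genes is a description of the rule. Of 52 genes compared, 11, KLRB1 included, were higher with KLRB1 on both days with an interval above 1, and 4 were lower on both. The 52 were T cell, other innate lymphoid and rule genes and others picked by hand. No share over all measured genes was computed, so the 11 and the 4 have no background. KLRK1 is among the 11 and GNLY among the 4, both genes of the rule.

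Cells with KLRB1 had more transcripts of several receptors and of the chemokine XCL1 on both days. XCL1 was at 789 and 1464 CPM with a KLRB1 UMI against 124 and 514 CPM without, ratios of 6.35 (2.64 to 18.5) and 2.85 (1.89 to 4.27). CXCL8 stood apart on day 9, at 1938 and 62.3 CPM with a KLRB1 UMI against 20.7 and 108 CPM without, ratios of 93.6 (16.4 to 3739) and 0.576 (0.0626 to 2.59), so nearly all CXCL8 UMIs of day 9 lay in cells with KLRB1. CCL5 was at 9801 and 16356 CPM with a KLRB1 UMI against 9939 and 12248 CPM without, ratios of 0.986 (0.864 to 1.13) and 1.34 (1.21 to 1.48). SH2D1A was at 451 and 654 CPM with a KLRB1 UMI against 104 and 45.1 CPM without, ratios of 4.35 (1.59 to 14.8) and 14.5 (5.32 to 49.2). IL2RB was at 270.4 and 654 CPM with a KLRB1 UMI against 20.7 and 99.2 CPM without. Beside these growth and signalling genes, CTSW, GZMK, FCER1G, RGS1, CXCR4 and GPR183, a receptor for oxysterols that guides lymphocyte position, were higher with KLRB1 on both days. CTSW was at 4168 and 5888 CPM with a KLRB1 UMI against 2464 and 2643 CPM without. GPR183 was at 1689.8 and 1900.4 CPM with a KLRB1 UMI against 269 and 758 CPM without. RGS1 was at 2253 and 2959.7 CPM with a KLRB1 UMI against 849 and 685 CPM without. KLRK1, a gene of the rule, was at 2185 and 3365 CPM with a KLRB1 UMI against 600.5 and 731 CPM without, and NCR1 had 5 and 11 UMIs in cells with KLRB1 and 1 and 2 in cells without.

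Cells without KLRB1 had more transcripts of GNLY, GZMH, TYROBP and MS4A2. GNLY, a gene of the rule, was at 3177 and 4891 CPM with a KLRB1 UMI against 10974 and 12717 CPM without. GZMH was at 22.5 and 436 CPM with a KLRB1 UMI against 890.3 and 1109 CPM without, and TYROBP at 406 and 685 CPM with a KLRB1 UMI against 1242 and 1109 CPM without. The share of cells with a TYROBP UMI went the other way, at 11 of 37 with KLRB1 and 6 of 28 without on day 9, and 12 of 26 and 19 of 72 on day 12, so the higher TYROBP level lay in few cells. MS4A2 had 0 UMIs in cells with KLRB1 on both days and 456 and 262 CPM in cells without, from 4 and 9 cells. CD8A was at 225 and 93.5 CPM with a KLRB1 UMI against 331 and 424 CPM without, a ratio of 0.680 (0.276 to 1.59) on day 9 and 0.220 (0.0439 to 0.685) on day 12. The smaller number of cells with KLRB1 on day 12 stands beside the lower KLRB1 level of that day. Since the kept share of each kind differs by day, a day ratio over all NK-gene cells and a change in the mix cannot be told apart.

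**Figure D4:**
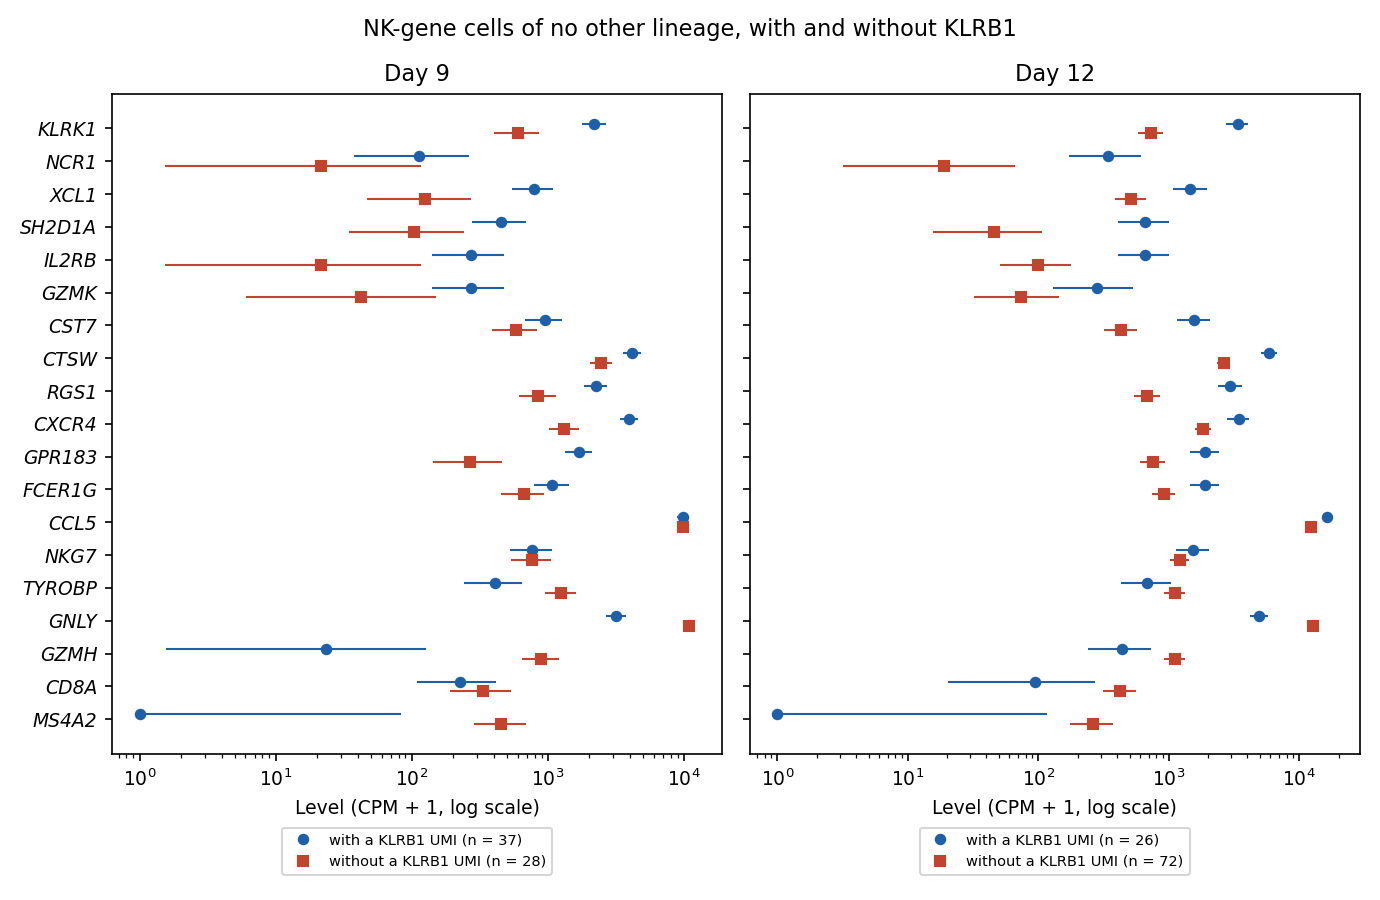
Levels of 19 genes (y axis) in CPM with 1 added (x axis, log scale) in NK-gene cells of no other lineage with a KLRB1 UMI (circles, 37 and 26 cells) and without (squares, 28 and 72 cells), day 9 left and day 12 right; lines are exact 95% intervals over UMIs. XCL1, SH2D1A and KLRK1 lie to the right with KLRB1 on both days, and GNLY, GZMH, TYROBP and MS4A2 lie to the right without it.

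Day ratios in all NK-gene cells and in all CD3 cells went at least 2-fold in opposite directions in 6 genes with a symbol. These were INPP4B, EFEMP1, KLF5, SAMHD1, WFDC2 and UNC13D. Features without a symbol were left out of the 6, and no share over all genes compared was computed. KLF5, an epithelial and proliferation-linked transcription factor, was at 101 and 48.9 CPM in NK-gene cells and 16.9 and 37.8 CPM in CD3 cells. WFDC2, a secreted epithelial protein, was at 83.3 and 19.6 CPM and 14.1 and 32.9 CPM. These differences were not tested, since each rests on 2 libraries. The direction in NK-gene cells could not be followed in the cells of no other lineage. There the log2 ratio of day 12 to day 9 was 0.90 (-2.23 to 4.44) for WFDC2 and 0.90 (-2.23 to 4.44) for UNC13D, and in all NK-gene cells with fewer than 2 macrophage UMIs that of KLF5 was 0.31 (-0.35 to 1.02). All 3 intervals hold 0. UNC13D, 1 of the 6, primes cytotoxic granules for release. Its level was 20.8 and 8.28 CPM in NK-gene cells and 18.3 and 39.4 CPM in CD3 cells.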

How the data were processed

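Pig endometrium and embryo cells of days 9 and 12 of pregnancy were profiled in 4 droplet libraries, and the 2 endometrium libraries are used here. The values deposited for each library are counts of UMIs by gene and cell barcode. The submitters' processing notes name Cell Ranger 6.1.2 and build Sscrofa11.1. The file headers name the same version, except that of the embryo library of day 9, which names version 4. Of 21280 features, 14811 had a symbol in the files and 688 took one from a gene name table by identifier. The day 9 embryo library lists 657829 barcodes, which hold 99.9% of the endometrial ones, so overlap with that full list tells nothing.

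Cells were kept and chosen as the account states. UMIs were summed per group and library, scaled to 1000000 (CPM), and compared as log2 ratios with 1 CPM added, for genes at 20 CPM or more. With 1 library a group there was no test; exact Poisson, binomial and conditional binomial 95% intervals cover counting error only, and UMIs of 1 cell are not independent. A gene with no UMI in 1 group was set against a floor of 3 UMIs per group for a fold, and its log2 ratio with 1 CPM added is no bound. Cells were thinned to 1000 UMIs (seed 0) to compare shares of NK-gene and stromal comparison cells with a UMI of an NK gene. Shares of cells with PTPRC, with T cell genes and in the KLRB1 split were counted unthinned, so those groups were not matched for depth. Lists were 494 genes in 36 lists, 430 matched. Named genes were those of the rule, the 12 highest and 12 lowest ratios of each comparison at 50 CPM or more (by day also above the rest of the library on the higher day, over CD3 cells by the smaller ratio of the 2 libraries, and without mitochondrial, ribosomal, haemoglobin and rule genes), and from each list up to 5 by level and any member past 2-fold at 20 CPM. Genes named in the cells of no other lineage outside that rule, and the KLRB1 split, were chosen after their values were seen. The members and lists were chosen with earlier results of these data known. Alternatives changed the UMI, mitochondrial, NK-gene, macrophage, stromal and T cell gene limits, the scaling, the CPM added and the minimum level. Scripts ran in Python 3.11.15 with numpy 2.4.6, scipy 1.17.1, pandas 2.3.3 and matplotlib 3.10.9, and the ratios and intervals were tested on simulated data. Some genes that the rule names are not reported here. Aligner settings, the cell filter and the annotation release are not named in the labels.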

Additional observations from a re-analysis of the deposited data

Results flagged for a closer look

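The embryo libraries, which enter no comparison here, held few transcripts of the NK genes. Kept embryo cells summed to 11 UMIs of the 6 genes on day 9 over 9852 cells and to 10 UMIs on day 12 over 6764 cells, and 1 cell of each library met the rule. Those counts are above the limit of 3 that a count of 0 allows.

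The day ratio of 2 genes went opposite ways in NK-gene and CD3 cells by more than 2-fold. They were sought among genes with a symbol at 50 CPM or more in NK-gene cells on either day. For KLF5 the log2 ratio was -1.03 in all NK-gene cells and 1.11 in all CD3 cells. For WFDC2 it was -2.03 and 1.17. Neither difference was tested, since each day is 1 library, and epithelial transcripts such as EPCAM were also lower on day 12 in the NK-gene cells.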

How the results depend on the processing

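No paired analysis was possible because each group is 1 library and no library can be left out. The share of NK-gene cells was higher on day 12 than on day 9 under every rule tried, but its size depended on the rule. On days 9 and 12 it was 1.38% and 2.81% with 3 NK-gene UMIs, 1.67% and 3.02% with 2 different NK genes and 1.16% and 1.76% without GNLY. It was 2.2% and 5.84% with fewer than 2 macrophage UMIs, 0.977% and 1.57% with fewer than 10 stromal UMIs, 1.47% and 3.69% when the rule was put to cells thinned to 1000 UMIs and 0.814% and 1.09% for the cells of no other lineage. On day 12 it was 7.88% of cells with 2000 UMIs and 6.09% without cells holding CD4, CD5, CD6 or CD28. Counts of genes past 2-fold by day were 1005 higher and 1084 lower with fewer than 10 stromal UMIs, 1108 and 1534 for no other lineage and 1288 and 1916 with no minimum level, and 798 were higher without GNLY. Of the interferon gamma genes, 10 passed with fewer than 10 stromal UMIs and 10 with the thinned rule. Relative to CD3 cells on both days, genes above and below numbered 67 and 65 without GNLY, 354 and 129 with fewer than 10 stromal UMIs, 368 and 57 with the thinned rule and 628 and 573 with no minimum level. With 2000 UMIs 79 were above, for no other lineage 135 were below, and relative to CD3 cells with 0 NK-gene UMIs 315 were above. Of the log2 ratios, 45 changed sign, in 28 with an interval that holds 0, and the cause was not tested. For no other lineage that was 16 of 19, and the values of BCR, of MZB1 and FJX1 on day 12, of DISP3 and of PLD4 compare 0 UMIs in a group with few, so with 1 CPM added they are no bounds and give no direction. By day, DISP3 was at 2.11 with fewer than 10 stromal UMIs and 2.999 for no other lineage, UNC13D at 1.25 and 0.90, and 1.27 with the thinned rule, and WFDC2 at 1.05 and 0.90. PECAM1 was at -0.83 with the thinned rule and KLF5 at 0.31 with fewer than 2 macrophage UMIs. Over CD3 cells without GNLY in the rule, day 12 ratios were -2.54 for MZB1, -3.14 for JCHAIN, 0.77 for FCER1G and 0.98 for KLRK1, and SLPI was at -0.22 and -0.86 on the 2 days. With fewer than 10 stromal UMIs, day 9 ratios were -0.0099 for JCHAIN, -0.91 for BCR and 0.10 for GNLY, and FCER1G was at 0.62 on day 12. With the thinned rule, BCR was at -0.42 and GNLY at 0.34 on day 9. For no other lineage, BCR was at -4.07 and -2.22, ABCG2 at -0.76 and -1.13 and NKG7 at 0.10 and 0.011, CCL5 at 0.050 and GNLY at 0.48 on day 9. On day 12 they were -2.22 for MZB1, -1.27 for CD93, -2.70 for FJX1, -1.10 for SLPI, -0.060 for RND1, 0.032 for SASH3, 1.49 for FCER1G and 0.73 for KLRK1. Relative to CD3 cells chosen to hold 0 NK-gene UMIs, which sets the ratio of the rule's genes by construction, GNLY was at 10.02 and 10.27, NKG7 at 6.80 and 7.01, KLRK1 at 7.35 and FCER1G at 0.60 on day 12. Within no other lineage, with fewer than 2 macrophage UMIs, day 12 ratios were -0.29 for SLA-DQB1 and -3.58 for PLD4. Genes past 2-fold in opposite directions by day in NK-gene and CD3 cells numbered 76 with fewer than 10 stromal UMIs and 95 for no other lineage. Those counts include features without a symbol, unlike the genes named above, and have no share over all genes beside them. Unthinned shares of cells with a UMI were 26.6% and 11.09% for KLRB1, 27.4% and 28.2% for KLRK1, 76.2% and 88.2% for GNLY, 35.7% and 31.1% for NKG7 and 3.03% for NCR1 on day 12. The limits of no other lineage, and all settings within it, were chosen after seeing the data. With medians of 1167 and 1194 UMIs a cell, depth limits most receptors and transcription factors to a few UMIs, so differences in them were not detectable at this depth.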
